A study of Mus musculus with 2 samples.

Results

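Chemokines and their receptors were described in cells dissected from the growing end of the mouse incisor. All genes of the deposited matrix whose symbol is Ccl, Cxcl, Cx3cl, Xcl, Ccr, Cxcr, Cx3cr, Xcr or Ackr followed by a number were taken, which gave 51 of 19626 genes. They were 30 ligands, 17 signalling receptors and 4 atypical receptors. The ligands were 17 of the CC, 11 of the CXC, 1 of the CX3C and 1 of the XC family, and the signalling receptors were 9, 6, 1 and 1 of the same families. Members named outside that pattern, such as Pf4, Ppbp, Ccl27a, Ccl21a and the decoy receptor Ccrl2, were not counted among them. All 51 members had a count in each library, and 47 of them (29 ligands and 18 receptors) had at least 20 counts over both libraries. Cxcl17 (2 counts in the Memo1-mutant, 3 in the Control), Ccr4 (2 and 3), Cxcr1 (4 and 1) and Ccr6 (6 and 7) stayed under that limit.

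Chemokines are small secreted proteins that direct the migration of leukocytes and some other cells. They bind heparan sulphate on cell surfaces and signal through membrane receptors that act on inhibitory G proteins. Inflammatory chemokines are induced in macrophages and stromal cells by signals acting through NF-kB or interferon. Homeostatic ones such as Cxcl12 are made constantly by stroma and endothelium and hold Cxcr4-bearing cells in place. Atypical receptors bind chemokines without activating G proteins and remove or transport them, and Ackr3 takes up Cxcl12.

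The study compared a Memo1;K14CRE mutant with a Control mouse at P20, with 1 mouse and 1 single-cell library of each. Memo1 is a cytoplasmic adaptor of receptor signalling, and the K14 promoter drives Cre in epithelial cells, whereas most chemokine-making cells described here are not epithelial. The labels do not say which alleles the Control carried. The tissue was the incisor cervical loop region, the stem cell niche from which enamel-forming ameloblasts renew, and both epithelium and mesenchyme entered the digest. With 1 library per genotype no test across animals was possible, and no p-value is given. The counts are 3′ tags, which do not scale with transcript length. Each ratio below divides the CPM of the Memo1-mutant by that of the Control, where CPM is a gene's summed molecule count (UMI) in a cluster per 1000000 summed there. Its exact 95% interval covers counting error only, not differences between mice or preparations.

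The Memo1-mutant library held 13820 cells with a median of 6798 UMIs, and the Control library held 9708 cells with a median of 2643 UMIs. Memo1 itself was at 17.7 CPM in the Memo1-mutant library (2135 counts) and at 19 CPM in the Control library (1509 counts), over all cells. Whether its 3′ tags lie outside the deleted part is not given, so these levels do not check the labels. The 2 libraries shared 139 cell barcodes. The submitters' 29 clusters of all cells and 9 clusters of the ameloblast lineage were used as deposited, under names drawn from marker lists. The lineage clusters replace the lineage's own 8 clusters of all cells wherever a count runs over the tissue. Because the clusters were built from all genes, members included, where a member is high is a description. Ccl2, Cxcl2, Ccl7, Ccl4 and Ccl3 are among the 10 leading genes of cluster 4, Ccl6 of cluster 1, Ccr2 of cluster 23 and Ccl5 of cluster 27.

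One cell population held most of the chemokine RNA. Cluster 4, with all 11 macrophage or monocyte markers above the tissue, made up 987 Memo1-mutant cells (7.14% of the library) and 491 Control cells (5.06%). It held 79.6% of all ligand counts in the Memo1-mutant library and 81.2% in the Control library. Ligand counts summed to 20031 CPM there in the Memo1-mutant and 18041 CPM in the Control, against 1107 and 1229 CPM for all receptors together. Of the 47 members with at least 20 counts, 16 had their highest mean level in cluster 4, 8 in cluster 23 and 7 in the T or NK-like cluster 27. The endothelium-like cluster 8 and the neutrophil-like cluster 28 led 3 each. Of these 47 members, 31 had the same leading cluster in each library taken alone.

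**Figure D1:**
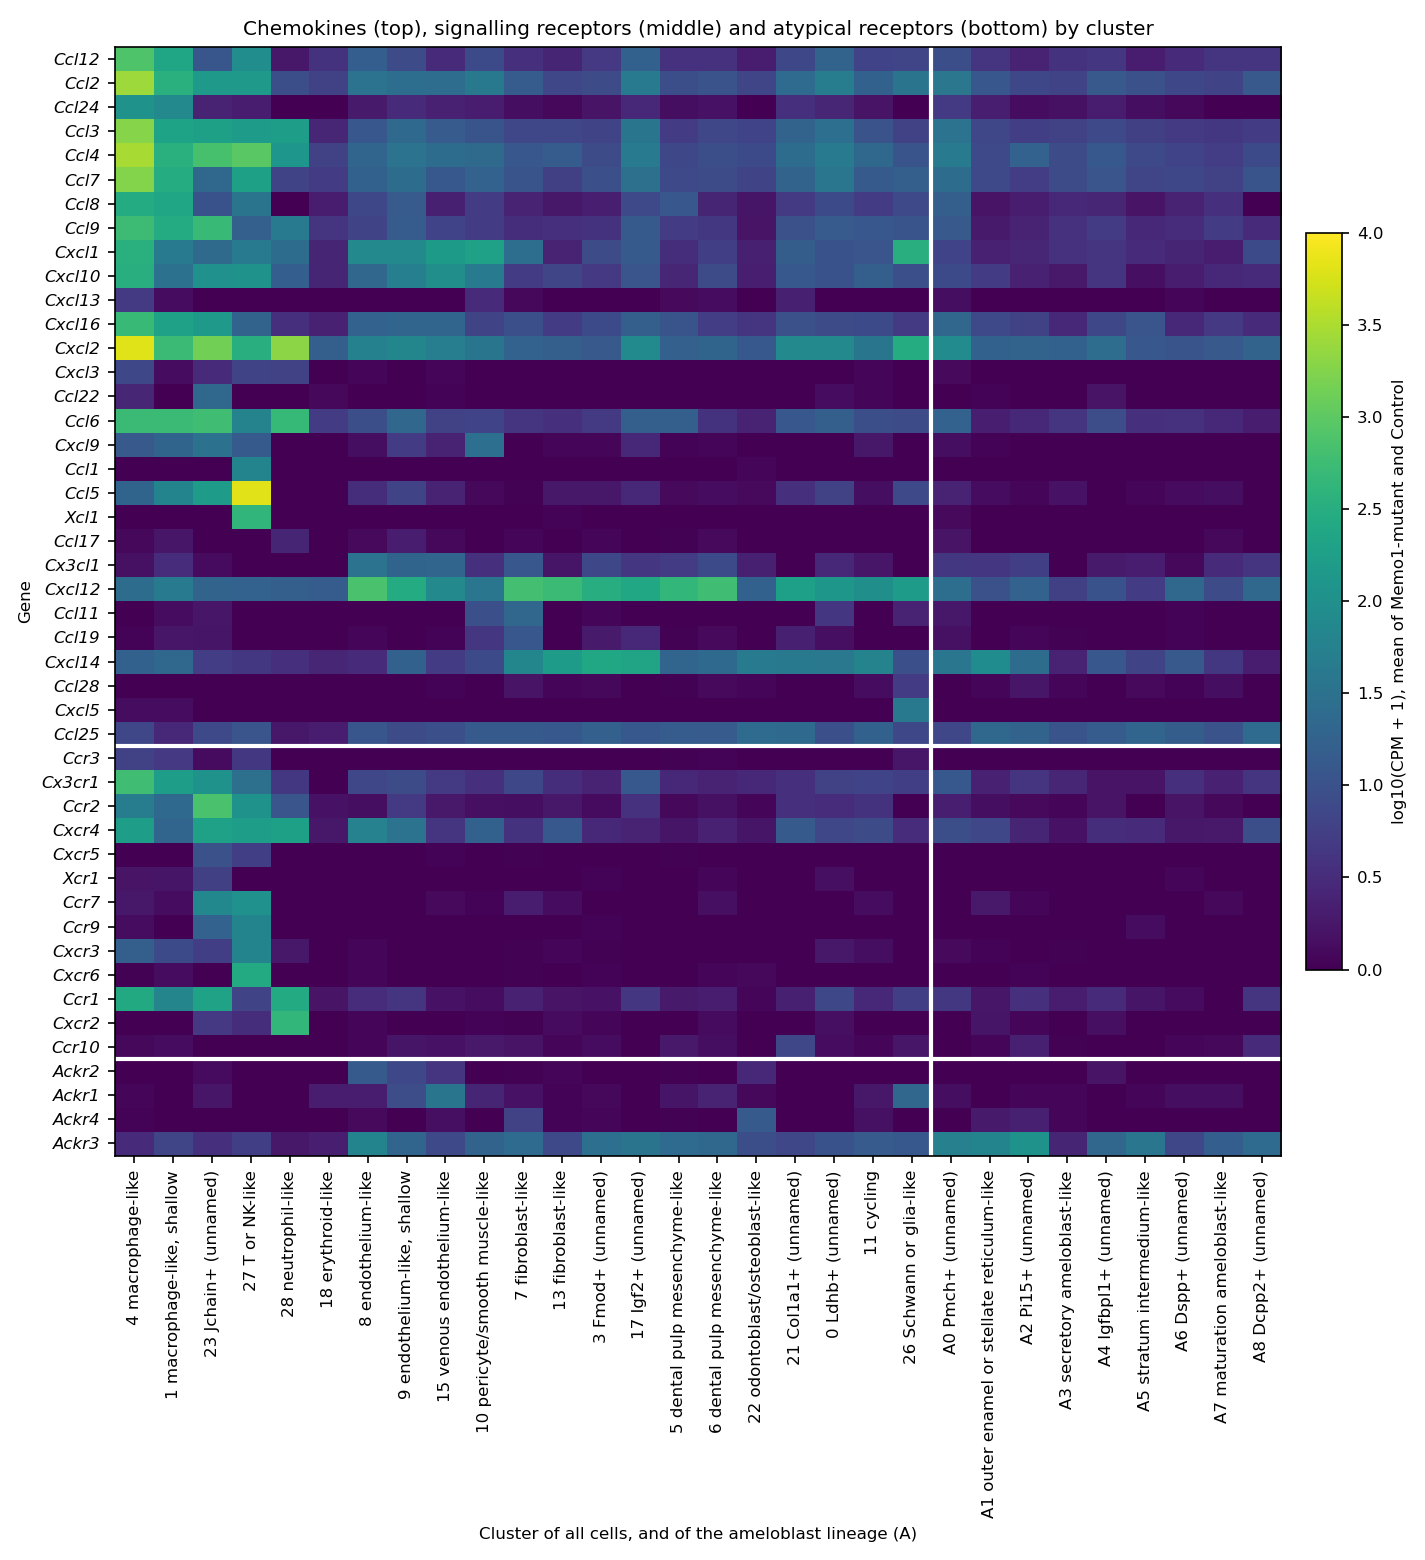
Level of 46 members (rows; ligands, then signalling receptors, then atypical receptors) in 30 clusters (columns; lineage clusters marked A), as log10(CPM + 1) of the mean of the Memo1-mutant and Control libraries. Ligand levels concentrate in macrophage or monocyte-like cluster 4, while Cxcl12 and Cxcl14 fill the stromal columns and Ackr3 is highest in lineage cluster 2.

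Cxcl2, a neutrophil attractant acting on Cxcr2, was the most abundant member. It stood at 6614 CPM (95% interval 6573 to 6656) in cluster 4 of the Memo1-mutant and at 5914 CPM (5859 to 5970) in the Control. Ccl4, an attractant of monocytes and T cells, was at 2844 CPM in the Memo1-mutant and 3042 CPM in the Control, and Ccl3, a ligand of Ccr1, at 1642 and 2096 CPM. The monocyte attractants that act on Ccr2 were abundant there as well. Ccl2 was at 3179 CPM in the Memo1-mutant and 2033 CPM in the Control, Ccl7 at 1989 and 1605 CPM, and the mouse ligand Ccl12 at 1056 and 547 CPM. Further macrophage ligands ran from 186 CPM (Cxcl1 in the Control) to 633 CPM (Ccl9 in the Control): the Ccr1 ligands Ccl6 and Ccl9, the membrane-bound Cxcr6 ligand Cxcl16, the Cxcr3 ligand Cxcl10, Ccl8 and Cxcl1. Cxcl3, a near relative of Cxcl2, had only 4.82 CPM in the Memo1-mutant and 7.70 CPM in the Control, so related genes that neighbour each other on chromosome 5 differed widely in level.

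The promoters of these neighbours are shown because they hold the same site beside very different levels, with Cxcl10 as an interferon-type promoter and Cxcl12 as a homeostatic one for contrast. Each line is the 250 bases before the RefSeq gene start in GRCm38.p6, written 5′ to 3′ on the gene's strand, and capitals mark matches to the NF-kB consensus or to the interferon-stimulated response element (ISRE) (GAAA, any 2 bases, GAAA), searched on both strands. The windows are Cxcl3 at chr5:90785851-90786100 (plus strand), Cxcl1 at chr5:90890995-90891244 (plus), Cxcl2 at chr5:90903649-90903898 (plus), Cxcl10 at chr5:92348890-92349139 (minus) and Cxcl12 at chr6:117168285-117168534 (plus).
Cxcl3: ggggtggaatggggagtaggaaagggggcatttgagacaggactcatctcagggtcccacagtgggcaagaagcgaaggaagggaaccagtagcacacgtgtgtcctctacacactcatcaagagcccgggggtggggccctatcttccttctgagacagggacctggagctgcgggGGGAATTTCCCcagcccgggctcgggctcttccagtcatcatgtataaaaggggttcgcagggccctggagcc
Cxcl1: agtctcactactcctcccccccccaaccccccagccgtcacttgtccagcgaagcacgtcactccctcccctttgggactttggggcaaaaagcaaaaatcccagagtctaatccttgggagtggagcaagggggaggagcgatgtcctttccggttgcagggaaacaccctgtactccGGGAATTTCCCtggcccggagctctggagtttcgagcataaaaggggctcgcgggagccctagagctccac
Cxcl2: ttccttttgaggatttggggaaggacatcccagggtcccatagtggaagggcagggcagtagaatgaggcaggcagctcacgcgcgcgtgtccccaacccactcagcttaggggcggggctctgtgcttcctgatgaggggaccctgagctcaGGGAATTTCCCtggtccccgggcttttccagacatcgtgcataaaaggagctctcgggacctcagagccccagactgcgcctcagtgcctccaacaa
Cxcl10: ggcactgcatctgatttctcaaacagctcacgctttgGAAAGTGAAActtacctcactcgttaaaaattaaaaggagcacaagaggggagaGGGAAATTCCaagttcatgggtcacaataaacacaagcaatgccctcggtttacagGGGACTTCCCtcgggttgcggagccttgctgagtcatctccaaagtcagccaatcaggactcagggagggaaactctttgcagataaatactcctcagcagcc
Cxcl12: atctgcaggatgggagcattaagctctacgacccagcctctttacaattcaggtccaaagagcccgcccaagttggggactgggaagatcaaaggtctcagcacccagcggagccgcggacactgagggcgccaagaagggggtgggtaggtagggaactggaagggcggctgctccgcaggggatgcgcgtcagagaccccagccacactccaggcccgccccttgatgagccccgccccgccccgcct
Cxcl3, Cxcl1 and Cxcl2 carry the identical stretch GGGAATTTCCC, which holds overlapping matches 1 base apart. It begins 73 bases before the start of Cxcl3, 71 before that of Cxcl1 and 97 before that of Cxcl2. Cxcl10 has NF-kB matches beginning 159 and 103 bases before its start and an ISRE match 213 before it, while the Cxcl12 window held neither motif. Of the 38 members with a window, 8 held the NF-kB consensus (Ackr2, Ccl9, Ccr3, Ccr6, Cxcl1, Cxcl10, Cxcl2 and Cxcl3), against 3.9% of the 32851 windows of all genes. The ISRE stood in 3 of the 38 (Ccl19, Cxcl10 and Cxcl14), against 2.98% of all windows. A match describes the letters of the window and is not evidence of binding.

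Several ligands were led by other blood cells. Ccl5, released by cytotoxic lymphocytes, was at 4313 CPM (4122 to 4511) in T or NK-like cluster 27 of the Memo1-mutant and at 9009 CPM (8614 to 9418) in the Control. Xcl1, the T and NK cell ligand of Xcr1, was at 137 CPM there in the Memo1-mutant and at 707 CPM in the Control, where 1 cell gave 83.0% of its counts. These levels come from 79 Memo1-mutant and 35 Control cells, under the limit of 50 cells set for a ratio. Ccl6 reached 691 CPM in the Memo1-mutant and 272 CPM in the Control in neutrophil-like cluster 28, and 592 and 588 CPM in cluster 23, an unnamed group led by Jchain, Chil3 and Napsa. Cxcl2 stood at 3319 CPM in cluster 28 of the Memo1-mutant and at 643 CPM in the Control, with 86 and 24 cells. Ccl22, a dendritic cell and macrophage ligand of Ccr4, was at 5.91 CPM in cluster 23 of the Memo1-mutant and at 36.4 CPM in the Control, where 79.2% of its counts lay in 1 cell.

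Stromal and endothelial cells carried a different ligand set. Cxcl12 was at 847 CPM (828 to 867) in endothelium-like cluster 8 of the Memo1-mutant, its highest cluster there, and at 570 CPM (547 to 595) in the Control. It was at 681 and 588 CPM in fibroblast-like cluster 7, the highest cluster of the Control, at 621 and 566 CPM in pulp-like cluster 6, and at 557 and 493 CPM in fibroblast-like cluster 13, in the same order of libraries. Cluster 8 and these stromal clusters thus held the ligand in each library. Cxcl14, an epithelial and stromal ligand with a debated receptor, was in cluster 3, an unnamed group led by Fmod, Ifitm1 and Tnc, at 250 CPM (242 to 257) in the Memo1-mutant and 226 CPM (214 to 238) in the Control. In cluster 17 it was at 205 CPM in the Memo1-mutant and 227 CPM in the Control, from 74 and 60 counts. It was also present in the epithelium, with 96.9 and 74.4 CPM in lineage cluster 1, which resembles outer enamel epithelium or stellate reticulum. Cx3cl1, the membrane-anchored ligand of Cx3cr1, was low and endothelial, at 33.0 CPM (29.2 to 37.1) in cluster 8 of the Memo1-mutant and 30.6 CPM (25.3 to 36.6) in the Control.

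Cxcl1, the close relative of Cxcl2, was also present in clusters of vessel walls and glia. Outside cluster 4 it was at 215 CPM (202 to 229) in pericyte or smooth muscle-like cluster 10 of the Memo1-mutant and at 167 CPM (149 to 187) in the Control. Venous endothelium-like cluster 15 had 182 and 122 CPM, and Schwann or glia-like cluster 26 had 252 and 395 CPM, the highest level of the Control. These come from 105 Memo1-mutant and 17 Control cells, under the limit of 50 cells in the Control. In cluster 10 these levels were 47.0 times in the Memo1-mutant and 202 times in the Control what macrophage RNA would give if it were present in proportion to the C1q genes. Ccl25, the thymic and gut ligand of Ccr9, was low in nearly every cluster, with 26.5 CPM in the Memo1-mutant and 21.3 CPM in the Control in odontoblast or osteoblast-like cluster 22. Ccl11, an eosinophil attractant, was at 21.5 CPM in fibroblast-like cluster 7 of the Memo1-mutant and 18.9 CPM in the Control, where 95.2% of its 21 counts lay in 1 cell. Ccl19, the ligand of Ccr7, was at 8.92 and 13.5 CPM in the same cluster.

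The remaining ligands lay at lower levels. Ccl24, an eosinophil attractant of Ccr3, was at 132 CPM in the Memo1-mutant and 88.2 CPM in the Control in cluster 4, a ratio of 1.49 (1.36 to 1.63). Cxcl9, an interferon-induced ligand of Cxcr3, was at 38.1 and 21.2 CPM in cluster 23 and at 28.5 and 26.6 CPM in pericyte-like cluster 10. Ccl1, the ligand of Ccr8, led in T or NK-like cluster 27 at 87.8 and 37.0 CPM. Over all cells, Cxcl5, a Cxcr2 ligand, had 12 Memo1-mutant and 13 Control counts, Ccl17, a Ccr4 ligand, 16 and 9, and Ccl28, a mucosal ligand of Ccr10, 20 and 11. Of the Cxcl5 counts, 83.3% in the Memo1-mutant and 61.5% in the Control lay in Schwann or glia-like cluster 26, which has 17 Control cells. The counts of Ccl17 and Ccl28 are too low to place these genes in a cell type, and the place of Cxcl5 rests on few counts.

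RNA of most signalling receptors was highest in blood cell clusters, and summed over all cells it was far lower than that of the ligands. Ccr10 led in cluster 21, an unnamed group led by Col1a1, Cpa6 and Meg3. Cx3cr1, the fractalkine receptor of resident macrophages, was at 596 CPM (584 to 609) in cluster 4 of the Memo1-mutant and at 595 CPM (578 to 613) in the Control. Ccr2, the receptor of recruited monocytes, was at 717 CPM (675 to 760) in cluster 23 of the Memo1-mutant and at 723 CPM (659 to 791) in the Control, but at only 41.3 and 52.9 CPM in cluster 4. So the ligands Ccl2, Ccl7 and Ccl12 were highest in cluster 4 and their receptor in cluster 23. Cxcr2, the neutrophil receptor of Cxcl1 and Cxcl2, led in cluster 28 with 399 CPM (351 to 453) in the Memo1-mutant and 474 CPM (396 to 563) in the Control. Ccr1, a receptor of Ccl3, Ccl6 and Ccl9, was at 307 and 250 CPM in cluster 28 and at 280 and 251 CPM in cluster 4.

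Lymphoid receptors led in cluster 27: Cxcr6 was at 248 CPM in the Memo1-mutant and 300 CPM in the Control, Ccr7 at 117 and 92.4 CPM, and Cxcr3 at 38.3 and 87.8 CPM. Cxcr4, the Cxcl12 receptor, reached 20 counts in 13 of the 26 clusters compared. It was at 254 CPM in the Memo1-mutant and 118 CPM in the Control in cluster 28, 160 and 224 CPM in cluster 23, 120 and 215 CPM in cluster 4, and 50.9 and 66.3 CPM in endothelium-like cluster 8. Xcr1, which marks cross-presenting dendritic cells, was at 7.88 and 1.52 CPM in cluster 23. Cxcr5, the follicular B cell receptor, was at 8.54 and 9.09 CPM there, and neither of these passed 10 CPM in that cluster. Ccr10, a skin-homing receptor of lymphocytes, had 35 counts in the whole Memo1-mutant library and 27 in the Control library.

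The 4 atypical receptors had their highest levels outside the blood cell clusters. Ackr3 was highest in the lineage: in lineage cluster 2, an unnamed group led by Pi15, Igfbp2 and Slc12a2, it had 85.5 CPM (75.0 to 97.2) in the Memo1-mutant and 139 CPM (129 to 149) in the Control. Endothelium-like cluster 8 had 62.1 and 63.0 CPM. Ackr1, the venular scavenger of inflammatory chemokines, was at 46.0 CPM in venous endothelium-like cluster 15 of the Memo1-mutant and 23.2 CPM in the Control. Schwann or glia-like cluster 26, with 17 Control cells, had 14.8 and 25.2 CPM of it, from 10 and 3 counts. Ackr2, a scavenger of CC chemokines on lymphatic endothelium, was at 9.43 and 15.7 CPM in cluster 8. Ackr4, which removes Ccl19 and Ccl25, was at 11.5 and 13.9 CPM in odontoblast or osteoblast-like cluster 22. Of 24 textbook ligand and receptor pairs in which each gene had at least 20 counts, 0 had the same leading cluster by mean level. That depends on the setting: in the Control alone, Ccr1 and its ligands Ccl3 and Ccl9 all led in cluster 4. In the Memo1-mutant alone, Ccr1 and its ligand Ccl6 both led in cluster 28. With clusters under 200 cells left out, Ccr1, Ccl3 and Ccl9 shared cluster 4, and so did Cxcl10 and Cxcr3. The share among other gene pairs was not computed.

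The first comparison asked how the genotypes differ within the cells that make most chemokines. In cluster 4, depth was alike, with a median of 14240 UMIs per cell in the Memo1-mutant and 14473 in the Control. Of the 21 ligands with at least 20 counts, 3 were at least 2-fold higher in the Memo1-mutant (Cxcl13, Cxcl1 and Cxcl14) and 1 was at least 2-fold lower (Ccl22). Of all 12305 genes measured there, 4.36% were that much higher and 1.69% that much lower. The median log2 ratio was -0.03 over the ligands, -0.15 over the 8 receptors and 0.10 over all genes. None of the 8 receptors passed 2-fold in either direction.

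Cxcl1 had the clearest difference among the abundant ligands. It was at 497 CPM (7423 counts) in the Memo1-mutant and 186 CPM (1378 counts) in the Control, a ratio of 2.67 (2.52 to 2.83). After each cell was thinned to 1000 UMIs, 23.1% of Memo1-mutant cells of cluster 4 (20.5 to 25.9%) and 7.94% of Control cells (5.71 to 10.7%) had a Cxcl1 UMI. At full depth the shares were 45.3% and 22.6%. In erythroid-like cluster 18, which should lack the gene, the thinned share was 1.2% in the Memo1-mutant and 0% in the Control, and the full-depth share 2.33% and 0.772%, at median depths of 11224.5 and 10660 UMIs. Cxcl2, its relative with the same promoter stretch, differed far less, with a ratio of 1.12 (1.11 to 1.13).

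The 3 Ccr2 ligands were all higher in cluster 4 of the Memo1-mutant, though each by less than 2-fold: Ccl12 had a ratio of 1.93 (1.86 to 2.00), Ccl2 of 1.56 (1.54 to 1.59) and Ccl7 of 1.24 (1.21 to 1.27). Other ligands lay the other way, with Ccl3 at 0.784 (0.768 to 0.800), Ccl6 at 0.743 (0.716 to 0.772) and Ccl4 at 0.935 (0.920 to 0.950). The interval of Cxcl10 included 1, at 0.977 (0.931 to 1.03). Cxcl13, a B cell attractant, had the largest ratio, 12.9 (4.89 to 48.2), from 104 Memo1-mutant and 4 Control counts, of which 74.0% and 75.0% lay in 1 cell each. Cxcl14, at 2.15 (1.67 to 2.80), and Cxcl12, at 1.66 (1.37 to 2.03), are stromal ligands, and the summed fibroblast markers in cluster 4 were also higher, at 681 CPM in the Memo1-mutant and 398 CPM in the Control. Their part in the result was not tested. Ccl22 rested on 15 and 17 counts, a ratio of 0.438 (0.204 to 0.932).

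Among receptors of cluster 4, Cxcr4 was lower in the Memo1-mutant. It was at 120 CPM there, against 215 CPM in the Control, a ratio of 0.560 (0.524 to 0.600). The interval of Cx3cr1 included 1, at 1.00 (0.965 to 1.04), and 40.9% of thinned Memo1-mutant cells and 40.1% of thinned Control cells had its UMI, against 0% of cluster 18 in each library (upper limits 2.2% and 1.45%). Ccr1 was at 1.12 (1.06 to 1.18) and Ccr2 at 0.780 (0.686 to 0.887). The other cell types' markers in this cluster differed too: dendritic markers summed to 1739 CPM in the Memo1-mutant and 4259 CPM in the Control, and erythroid ones to 999 and 3337 CPM. Neutrophil markers summed to 53.2 and 53.5 CPM, and T or NK markers to 3.48 and 4.59 CPM.

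**Figure D2:**
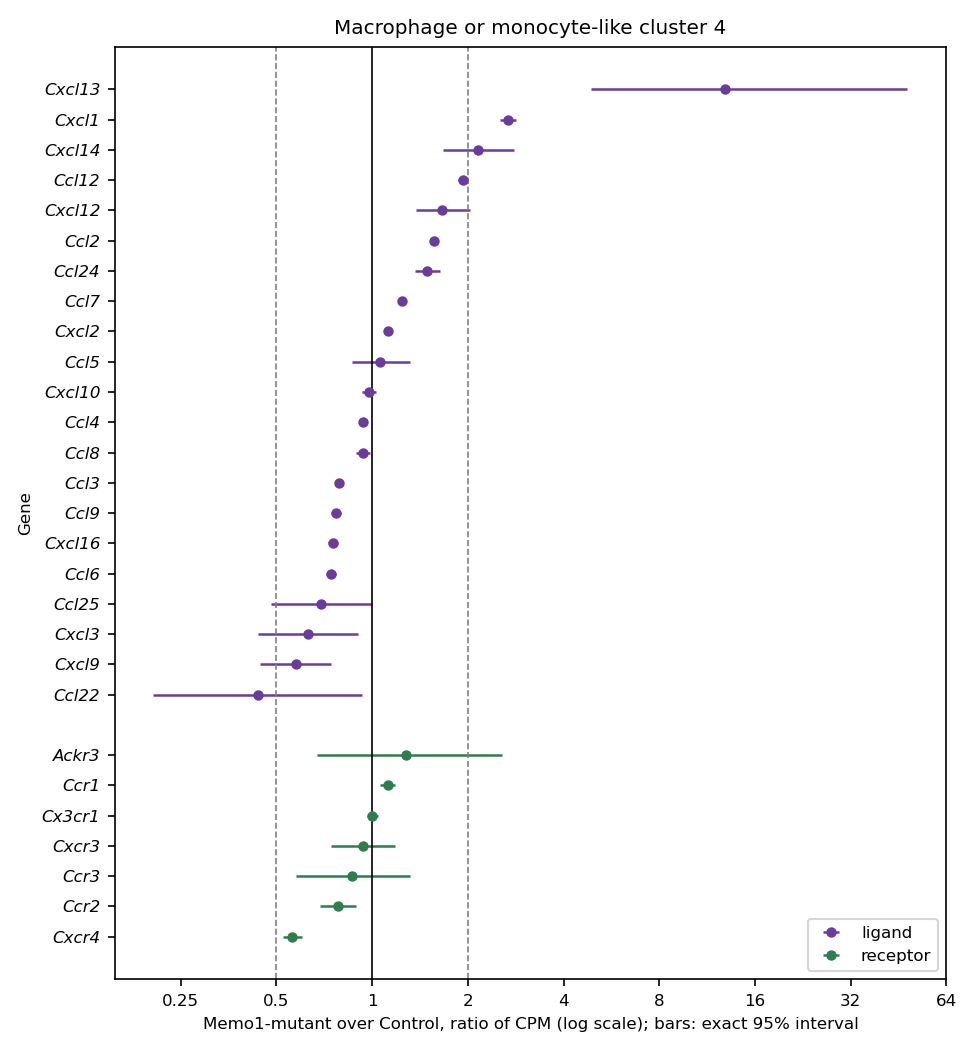
Ratio of CPM, Memo1-mutant over Control, for 28 members with at least 20 counts in macrophage or monocyte-like cluster 4, on a log axis, with exact 95% counting intervals as bars and dashed lines at 0.5 and 2. Cxcl1 lies at 2.67 and Ccl12 at 1.93, while Cxcr4 lies at 0.560.

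Few genes around the chemokine pathway passed 2-fold in cluster 4, as among all genes there, of which 4.36% were higher and 1.69% lower. Of 21 measured genes for G protein and arrestin signalling, 0 passed 2-fold in either direction, and their median log2 ratio was -0.04. Rgs1 and Rgs2, which switch off the G proteins below chemokine receptors, had ratios of 0.573 (0.557 to 0.588) and 0.635. Of 17 genes of inflammatory transcription, 0 were higher by 2-fold and 1 was lower, the cytokine gene Il1b, at 1703 CPM in the Memo1-mutant and 3503 CPM in the Control, a ratio of 0.486 (0.478 to 0.495). Tnf, at 1.11, and the NF-kB inhibitor gene Nfkbia, at 0.975, stayed near 1. Of 10 genes for matrix binding and proteolysis of chemokines, 0 passed 2-fold, with the gelatinase gene Mmp9 at 0.656. Ccrl2, a chemerin-binding relative of the receptors outside the naming rule, was at 292 CPM in the Memo1-mutant and 824 CPM in the Control, a ratio of 0.355 (0.341 to 0.369).

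The shallow macrophage or monocyte-like cluster 1, with a median of 846 UMIs per cell in the Memo1-mutant and 866 in the Control, gave larger ratios. There 6 of 17 ligands were at least 2-fold higher and 0 lower, against 5.1% higher and 1.45% lower of all genes. Cxcl1 had a ratio of 6.46 (3.79 to 11.7; 100 and 16 counts), Cxcl2 of 3.31 (2.93 to 3.74) and Ccl2 of 2.65 (2.30 to 3.06). Cxcl10, Ccl7 and Ccl12 were the others, at 2.56, 2.37 and 2.07. The ratio of Cxcl10 turned to 0.955 when only cells with at least 1000 UMIs were kept. Inflammatory transcription genes were higher with them: 8 of 16 passed 2-fold and 0 were lower, among them Tnf at 3.41 (2.12 to 5.70), Nfkbiz at 2.52 (1.90 to 3.38) and Nfkbia at 2.21 (1.95 to 2.50), while Il1b stayed at 1.04. Of the receptors Ccr2 was lower, at 0.432 (0.235 to 0.766). Erythroid markers summed to 842 CPM in the Memo1-mutant and 9209 CPM in the Control in this cluster, and their part in the result was not tested.

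Over the 26 clusters with at least 50 cells in each library, ligands were higher in the Memo1-mutant far more often than genes in general. Of 316 pairs of a ligand and a cluster with at least 20 counts, 112 (35.4%) were at least 2-fold higher and 15 (4.75%) at least 2-fold lower, with a median log2 ratio of 0.65. The same shares over all genes were 5.41% and 3.05%. In the 18 clusters outside the epithelial lineage the counts were 78 higher and 15 lower of 242, against 4.94% and 2.58% of all genes. Of 68 receptor pairs, 10 (14.7%) were higher and 10 lower, with a median of -0.24; without each member's top cell these became 5 and 6 of 57. The interval excluded 1 in 94 of the 112 higher ligand pairs and in all 15 lower ones, and in 20 of the 127 ligand pairs past 2-fold more than 50% of the counts of the higher library came from 1 cell. The median log2 ratio of all genes per cluster lay between -0.09 and 0.24.

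Part of this pattern lies at levels that macrophage RNA outside its own cells would give. For every cluster, the level of each member in cluster 4 was scaled by the ratio of summed C1qa, C1qb and C1qc, complement genes of macrophages, there and in cluster 4. Of 295 ligand pairs outside cluster 4, 85 lay at or below that scaled level in each library, and 52 of the 109 higher pairs were among these. Another 155 pairs lay above it in each library, with 25 higher and 12 lower, and 55 lay above it in 1 library only, with 32 higher and 2 lower. In secretory ameloblast-like lineage cluster 3, Cxcl2 was at 25.2 CPM in the Memo1-mutant and 7.42 CPM in the Control, against scaled levels of 44.1 and 15 CPM. Ccl2 was at 8.19 and 3.12 CPM there, against 21.2 and 5.15 CPM. In that cluster Cxcl2 and Ccl2 thus stood no higher than the scaled level. These values do not describe other lineage clusters.

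For the 6 most abundant macrophage ligands, the ratios exceeded that of C1q in most clusters. Cxcl2, Ccl4, Ccl2, Ccl7, Ccl3 and Ccl12 gave 125 measured pairs outside cluster 4, of which 118 had a ratio above 1 and 75 were at least 2-fold higher. Their median ratio was above 1 in 25 of 25 clusters, between 1.02 and 4.92. The C1q ratio was above 1 in 16 of these clusters, between 0.233 and 3.38, and the ligands' median exceeded it in 23. In cluster 4 itself the C1q ratio was 0.919 (0.913 to 0.925). There Cxcl2, Ccl4, Ccl2, Ccl7 and Ccl12 already lay above it and Ccl3 below it. In erythroid-like cluster 18 C1q had a ratio of 0.985, and Cxcl2 was at 21.4 CPM (37 counts) in the Memo1-mutant and 8.82 CPM (22 counts) in the Control. Across the 25 clusters the median and the C1q ratio had a Pearson r of 0.50 and a Spearman rho of 0.56, as a description, since all clusters share the same 2 libraries. Free RNA, mixed droplets and expression by the cells themselves cannot be told apart here, and doublets were not called.

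**Figure D3:**
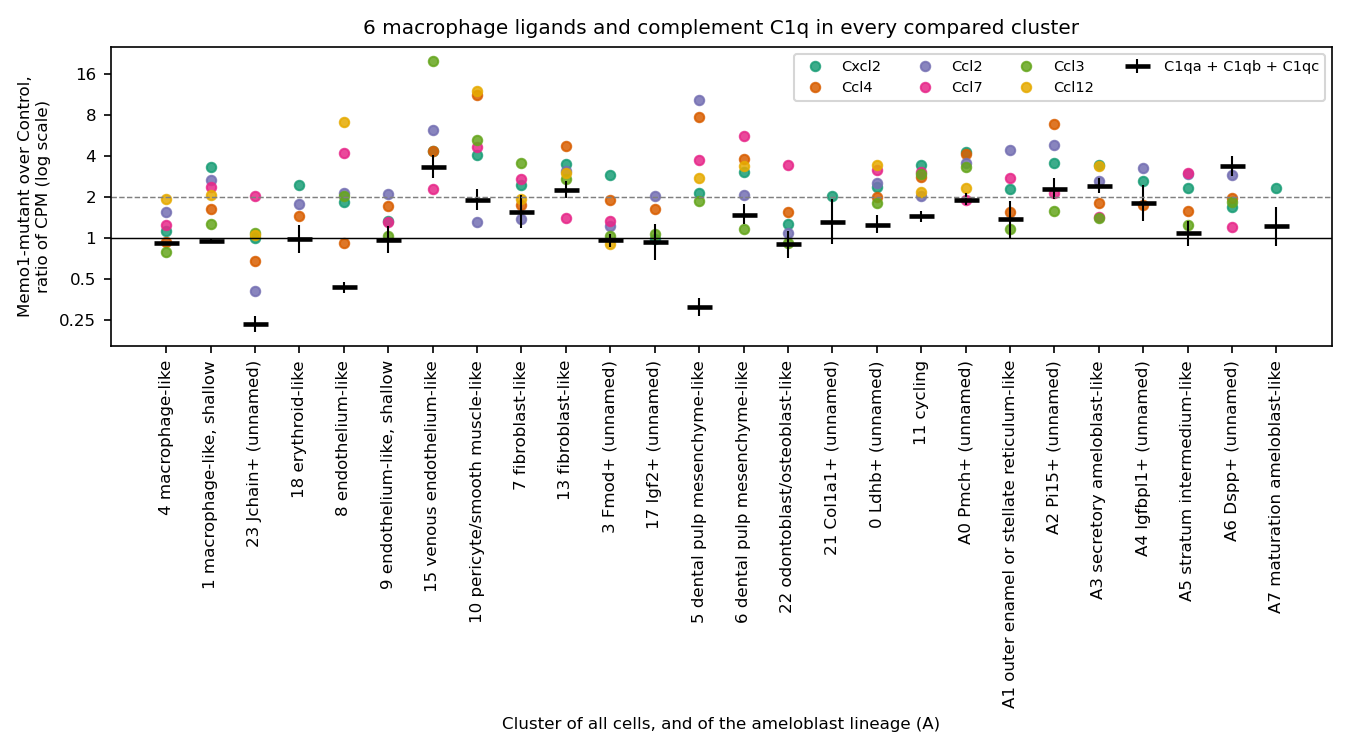
Ratio of CPM, Memo1-mutant over Control, of Cxcl2, Ccl4, Ccl2, Ccl7, Ccl3 and Ccl12 and of the summed C1q genes in each of the 26 clusters, on a log axis. The ligands' median lies above 1 in every cluster outside cluster 4, while C1q lies above 1 in 16 of those 25.

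In the epithelial lineage, Ackr3 was lower in the Memo1-mutant. Its ratio was below 1 in 7 of 8 lineage clusters, with an interval excluding 1 in 5 and past 2-fold in 2. In lineage cluster 2, where it is highest, the ratio was 0.616 (0.530 to 0.713; 236 and 761 counts). In lineage cluster 1 it was 0.469 (0.297 to 0.706), from 24 Memo1-mutant counts in 75 cells and 491 Control counts in 495 cells. Maturation ameloblast-like lineage cluster 7 had 3.44 CPM (4 counts) in the Memo1-mutant and 25.9 CPM (60 counts) in the Control, a ratio of 0.133 (0.035 to 0.358), in a cluster where 5.36% of all genes were at least 2-fold higher and 12.3% lower. Stratum intermedium-like lineage cluster 5 had 31.1 and 41.6 CPM, a ratio of 0.748 (0.566 to 0.981). Lineage cluster 6, led by Dspp and Fxyd4, was the exception at 1.30 (0.738 to 2.33), and secretory ameloblast-like lineage cluster 3 stood at 1.2 and 2.08 CPM, a ratio of 0.577 whose interval reached 1.32.

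The share of cells with an Ackr3 UMI was also lower at equal depth, but the intervals overlapped. Thinned to 1000 UMIs, 7.37% of Memo1-mutant cells (4.09 to 12.1%) and 12.1% of Control cells (8.79 to 16%) of lineage cluster 2 had one, and at full depth 60.5% and 77.9%. In lineage cluster 1 the thinned shares were 4.62% and 8.77%, with 10 Memo1-mutant and 16 Control cells too shallow to thin. Erythroid-like cluster 18 had 0 of 166 thinned cells in the Memo1-mutant, which allows up to 2.2%, and 0.395% in the Control. The C1q-scaled level of Ackr3 in lineage cluster 2 was 0.0136 CPM in the Memo1-mutant and 0.00426 CPM in the Control, under the measured levels. That scale covers macrophage RNA only, and RNA from other cells that hold Ackr3, such as endothelium-like cluster 8, was not scaled. Outside the lineage, Ackr3 was below 1 in 10 of 14 clusters and ran between 0.445 in venous endothelium-like cluster 15 (0.241 to 0.828) and 1.87 in pericyte-like cluster 10 (1.18 to 3.07). In endothelium-like cluster 8 the interval included 1, at 0.987 (0.846 to 1.15). Ratios below 1 thus occurred in and outside the lineage, and the difference between lineage and other clusters was not tested.

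Ligands were higher in the lineage: 34 of 74 pairs were at least 2-fold higher and 0 lower, against 6.46% and 4.1% of all genes there. Of these, Cxcl12 lies above the C1q-scaled level, which covers macrophage RNA only and not RNA of stromal or endothelial cells. Its ratio was above 1 in 7 of 7 lineage clusters. In lineage cluster 6 Cxcl12 was at 34.1 CPM (29.1 to 39.7) in the Memo1-mutant and at 7.37 CPM (4.98 to 10.5) in the Control, a ratio of 4.62 (3.12 to 7.07). Stromal markers were higher in lineage cluster 6 too. Fibroblast markers summed to 804 CPM in the Memo1-mutant and 266 CPM in the Control there, dental follicle markers to 294 and 6.88 CPM and dental pulp markers to 227 and 66.6 CPM, and their part in the result was not tested. In lineage cluster 3 the ratio was 2.19 (1.33 to 3.71), at 6.55 and 2.99 CPM. Ccl25 was higher in lineage cluster 2 at 2.71 (1.87 to 3.95), in cluster 1 at 2.58 (1.44 to 4.39) and in cluster 3 at 2.00 (1.42 to 2.84), with 25.7 CPM in the Memo1-mutant and 9.49 CPM in the Control in the first of these. Cxcl14 was 7.74-fold higher (2.94 to 25.7) in lineage cluster 5, from 27 and 5 counts. Of 14 receptor pairs 6 were higher and 2 lower, and the 2 lower ones were Ackr3. Of the higher ones, 4 were the macrophage receptor Cx3cr1, at 2.2 to 3.97, and 2 were Cxcr4. Cxcr4 in lineage cluster 0, a shallow group led by Pmch and haemoglobin genes, had 20 Memo1-mutant counts and 1 Control count, and 35.0% of the 20 came from 1 cell.

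**Figure D4:**
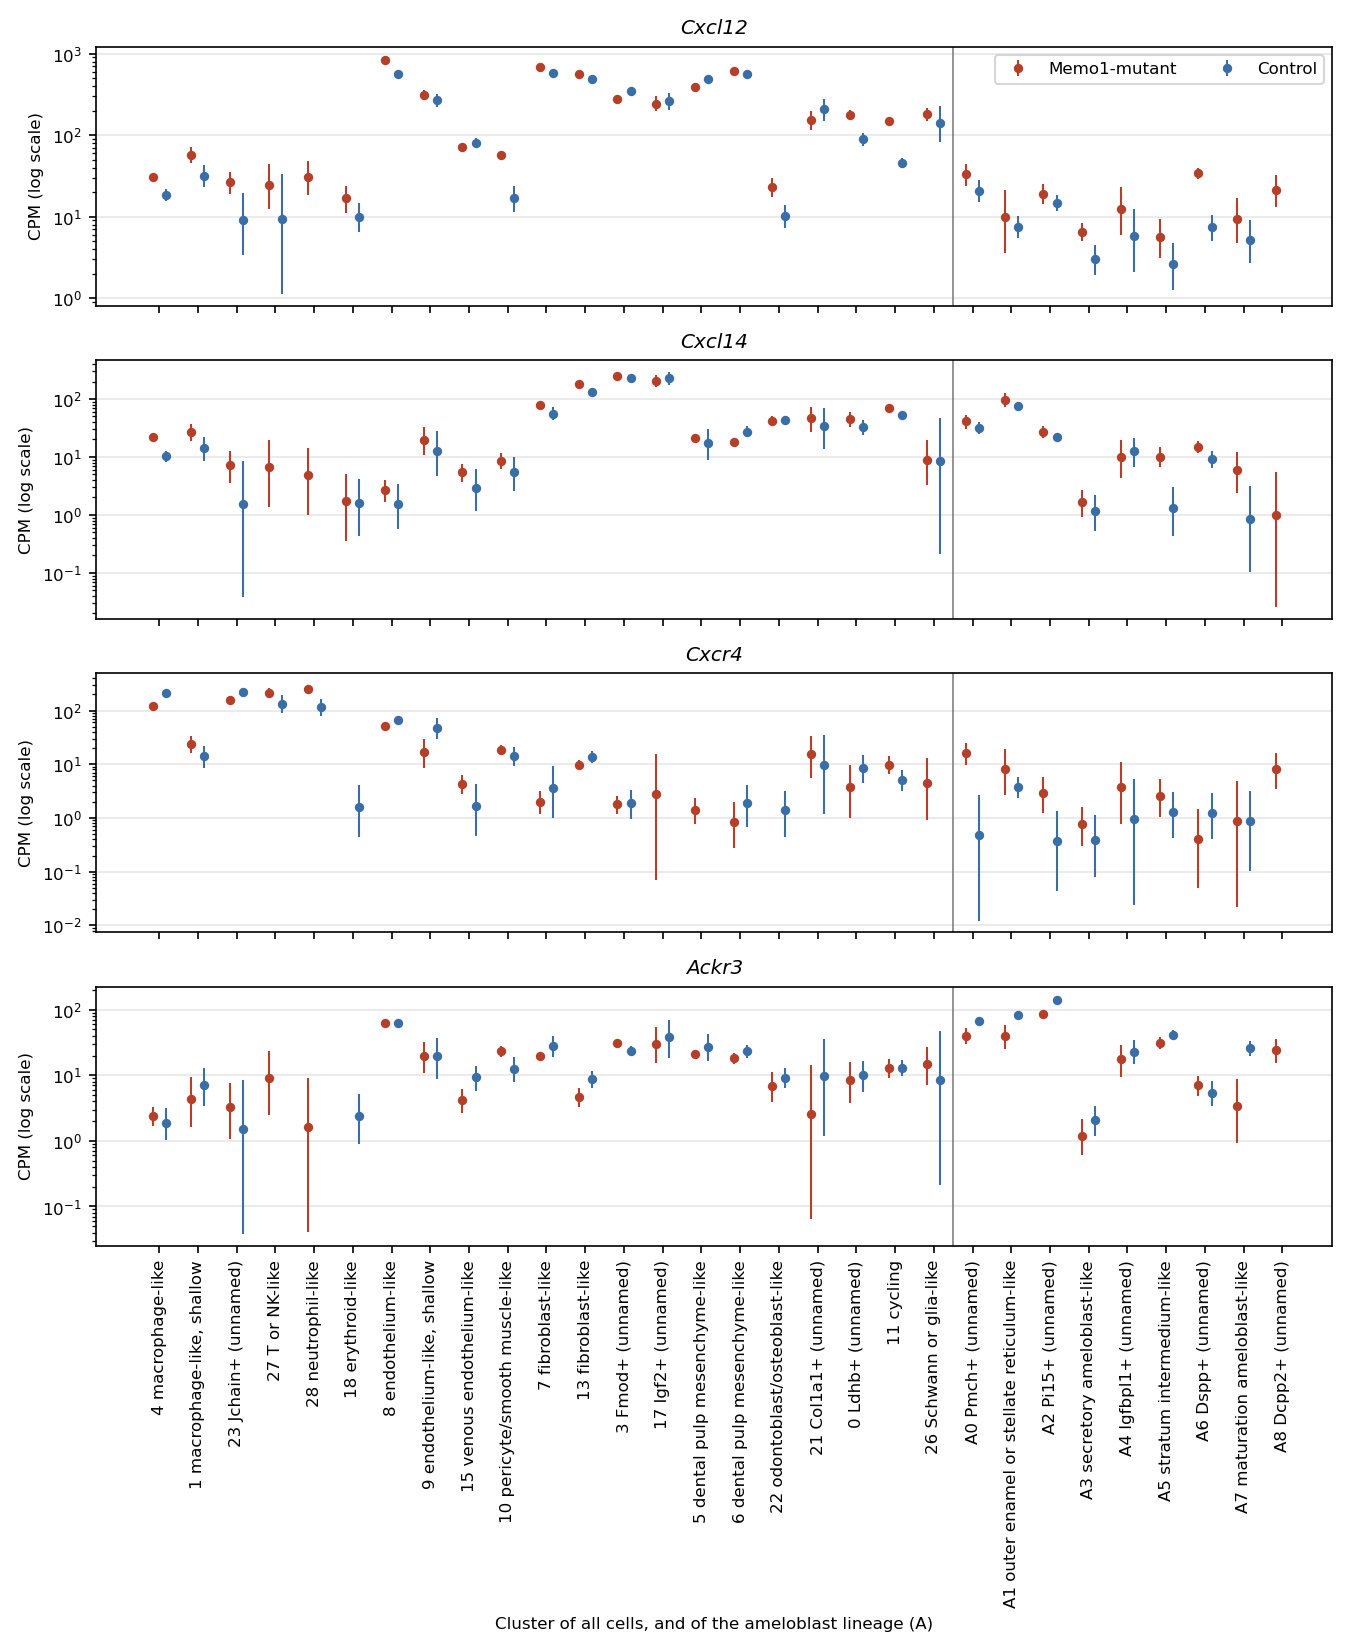
Level in CPM of Cxcl12, Cxcl14, Cxcr4 and Ackr3 by cluster, Memo1-mutant (red, left of each pair) and Control (blue, right), with 95% Poisson intervals; a library with 0 counts is not drawn. Cxcl12 is highest in endothelium-like cluster 8 at 847 CPM in the Memo1-mutant and in fibroblast-like cluster 7 at 588 CPM in the Control, and Ackr3 in lineage cluster 2 at 85.5 and 139 CPM.

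In vessels and stroma, Cxcl12 differed by cell type. Its ratio was 1.49 (1.42 to 1.56) in endothelium-like cluster 8, 1.16 (1.07 to 1.26) and 1.13 (1.08 to 1.19) in fibroblast-like clusters 7 and 13, and 1.10 (1.04 to 1.16) in pulp-like cluster 6. It was lower in cluster 3, at 0.789 (0.750 to 0.831), and in pulp-like cluster 5, at 0.800 (0.717 to 0.895). The largest ratios outside the lineage were in clusters 10 and 11: pericyte-like cluster 10 had 56.8 CPM in the Memo1-mutant and 16.8 CPM in the Control, a ratio of 3.37 (2.32 to 5.07), and cycling cluster 11 had 150 and 45.6 CPM, a ratio of 3.29 (2.77 to 3.92). Over all clusters 20 of 25 ratios lay above 1, 7 were at least 2-fold higher and 0 at least 2-fold lower. In cluster 11 pericyte markers summed to 2048 CPM in the Memo1-mutant and 414 CPM in the Control, fibroblast markers to 6600 and 3824 CPM, dental epithelium markers to 815 and 1624 CPM and erythroid markers to 11659 and 249 CPM. The part of this makeup in the ratios of cluster 11 was not tested. Cxcl14 was above 1 in 19 of 23 clusters, at 1.11 in cluster 3 and 1.36 in cluster 13, but at 0.651 (0.485 to 0.875) in pulp-like cluster 6.

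Endothelium-like cluster 8 split its ligands. Of 17, 4 were at least 2-fold higher and 5 lower, against 3.66% and 1.55% of all genes. The higher ones were Ccl12, Ccl7, Ccl2 and Ccl3, and for the first 3 between 60.1% and 75.2% of the Memo1-mutant counts came from 1 cell. Cxcl10 was lower at 0.201 (0.143 to 0.277; 55 and 129 counts), together with Ccl5, Ccl8, Ccl6 and Ccl9 at 0.118 to 0.425. The macrophage receptor Cx3cr1, at 0.260, and C1q, at 0.433, were lower in the same cluster. Cxcr4 was at 0.767 (0.656 to 0.900) and Ackr2 at 0.601 (0.425 to 0.855).

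Venous endothelium-like cluster 15 had Ackr1 at a ratio of 1.98 (1.48 to 2.69; 278 and 55 counts). There 7 of 14 ligands were at least 2-fold higher and 0 lower, against 3.72% and 3.37% of all genes. Ccl6, at 22.7 (58 counts and 1 count), Ccl3 and Ccl2, at 6.17, each had between 60.3% and 71.2% of their Memo1-mutant counts in 1 cell. C1q was itself 3.32-fold higher there. In pericyte-like cluster 10, 9 of 18 ligands were higher and 1 lower, against 4.86% and 1.61% of all genes, with Cxcl2 at 4.05, while Cxcl1, which these cells hold at a high level, was at 1.29. In cycling cluster 11, 10 of 15 ligands were higher and 0 lower, against 7.69% and 2.49%, with Cxcl1 at 8.65 and Cxcl10 at 7.94 (4.47 to 15.2). Ackr4 was lower in fibroblast-like cluster 7, at 0.206 (0.0829 to 0.538), from 14 and 9 counts.

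Cluster 23, which leads Ccr2 and 7 other members, did not follow the macrophage cluster. Of 15 ligands 3 were at least 2-fold higher and 4 lower, against 7.21% and 2.08% of all genes, and of 7 receptors 1 was higher and 1 lower. Ccl2 was lower at 0.405 (0.315 to 0.520), and Cxcl16 at 0.437 (0.340 to 0.561). Ccl5, at 0.134, and Ccl22, at 0.163, had 81.9% and 79.2% of their Control counts in 1 cell. Ccr9, the gut-homing receptor of Ccl25, was at 32.2 CPM (49 counts) in the Memo1-mutant and 1.52 CPM (1 count) in the Control, a ratio of 21.2 (3.64 to 856). Cx3cr1 was lower, at 0.442 (0.333 to 0.587), and Cxcr4 at 0.715 (0.580 to 0.882). C1q was at 0.233 there, and erythroid markers summed to 2184 CPM in the Memo1-mutant and 37181 CPM in the Control. B or plasma cell markers summed to 2144 and 364 CPM and neutrophil markers to 981 and 326 CPM in cluster 23, and the part of these cell types in its ratios was not tested.

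Summed over all cells, 7 of 29 ligands and 2 of 18 receptors were at least 2-fold higher and 2 ligands and 1 receptor lower, against 5.09% and 3.15% of all genes. Such sums also move with the share of each cluster, so fewer cells of a type and less RNA per cell cannot be told apart in them. The higher members were Cxcl13 at 7.54, Ccl11 at 3.22, Ccl1 at 2.92, Cxcl1 at 2.84 (2.72 to 2.97), Ccl19 at 2.61, Ccl12 at 2.53 and Ccl2 at 2.07, with the receptors Ccr9 at 5.37 and Ackr1 at 3.41. The lower ones were Xcl1 at 0.259, Ccl22 at 0.404 and Ackr4 at 0.375. Without each member's top cell the ratio of Xcl1 turned to 1.2 and that of Ccl22 lay at 0.632, so 0 ligands stayed at least 2-fold lower. Ackr3 was at 19 CPM in the Memo1-mutant and 30.6 CPM in the Control, a ratio of 0.622 (0.587 to 0.658). Fibroblast-like cluster 7, which led Ccl11 and Ccl19, made up 5.57% of the Memo1-mutant library and 1.05% of the Control library. Within cluster 7 the ratio of Ccl11 was 1.14 and that of Ccl19 was 0.661. The part of such shares in the ratios over all cells was not tested.

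Many members lie in groups of neighbouring genes. In the GENCODE M21 annotation of GRCm38, 12 ligands lie on chromosome 11, with Ccl2 at chr11:82035571-82037453, Ccl7 at chr11:82045712-82047525 and Ccl12 at chr11:82101845-82103400 on the plus strand. Ccl11, at chr11:82057823-82062955, lies between Ccl7 and Ccl12, and Ccl8, at chr11:82115185-82116799, lies after Ccl12. Ccl3, at chr11:83647844-83649355 on the minus strand, and Ccl4, at chr11:83662584-83664683 on the plus strand, form another neighbourhood on that chromosome. In cluster 4 Ccl8 had a ratio of 0.934 (0.887 to 0.984), so the first neighbourhood held ratios on both sides of 1. Cxcl1, at chr5:90891241-90893115, and Cxcl2, at chr5:90903871-90905938, lie on the same strand of chromosome 5 but had ratios of 2.67 and 1.12. Of the receptors, 10 signalling and 2 atypical ones lie on chromosome 9, while Ackr3 lies at chr1:90203980-90216751 and Cxcr4 at chr1:128588199-128592293.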

How the data were processed

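Single-cell suspensions of the incisor cervical loop were profiled on the 10x platform, 1 library per genotype. The deposited matrix holds raw UMI counts per gene and cell, made by the authors with Cell Ranger on mm10 and analysed in Seurat 3, per the submitters' processing notes, and the authors' deposited cell table gives each cell's library and cluster, which are labels in a unit of their own (other). The lowest depth of a deposited cell is 501 UMIs, and total UMIs were 120862385 in the Memo1-mutant and 79518656 in the Control.

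Counts were summed per cluster and library and divided by the cluster's total (CPM). Ratios were given for members with at least 20 counts over both libraries in clusters with at least 50 cells in each, with exact conditional 95% intervals for the ratio of Poisson counts, and "at least 2-fold" refers to the ratio. Shares have exact binomial (Clopper-Pearson) intervals, also after thinning cells to 1000 UMIs. A count of 0 allows up to 3 counts. Intervals and limits cover counting error only. No differential test was run, since each group has 1 mouse. Named members are those with at least 20 counts, at their leading clusters, and per cluster up to 8 higher and 8 lower past 2-fold, ordered by the nearer interval bound, plus Cxcl12, Cxcl14, Cx3cl1, Cxcr4 and Ackr3 anywhere. The C1q-scaled level, the 6 ligands and the leaving-out of cells with shared barcodes were added after the data were seen. Members, marker lists and pathway lists were chosen with earlier results of these data known. Clusters were named from marker lists, and those that failed were called by number and leading genes. Doublets were not called. 1 member enters the counts but is not reported here or drawn. Alternatives were TMM (edgeR 4.0.16) and median-of-ratios (DESeq2 1.42.0) scaling factors, used as factors only, stricter cell limits, thinning, per-cell means, leaving out the deepest 5% of cells or a member's top cell, and other count limits. Python 3.11.15, numpy 2.4.6, pandas 2.3.3, scipy 1.17.1, matplotlib 3.10.9 and R 4.3.3 were used. The interval code was tested on simulated data. Promoter windows are from RefSeq for GRCm38.p6.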

Additional observations from a re-analysis of the deposited data

Results flagged for a closer look

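For 8 members the ratio of Memo1-mutant over Control was at least 2-fold higher in 1 cluster and at least 2-fold lower in another, with each interval excluding 1. Members with opposite ratios inside 2-fold are not among these 8. The difference between the clusters was not tested, and each library is 1 mouse. Cxcl10 was at 7.94 (4.47 to 15.2) in cycling cluster 11 and at 0.201 (0.143 to 0.277) in endothelium-like cluster 8. Cx3cr1 was at 7.08 (2.23 to 36.1) in fibroblast-like cluster 13 and at 0.260 (0.145 to 0.454) in cluster 8. Ccl2 was at 6.17 (3.78 to 10.8) in venous endothelium-like cluster 15, where 67.9% of the Memo1-mutant counts lay in 1 cell, and at 0.405 (0.315 to 0.520) in cluster 23. Cxcr4 was at 33.1 (5.29 to 1370) in lineage cluster 0, from 20 counts in the Memo1-mutant and 1 count in the Control, and at 0.353 (0.159 to 0.746) in shallow endothelium-like cluster 9.

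Macrophage ligands gave the other cases. Cxcl16 was at 3.79 (2.10 to 7.15) in lineage cluster 0 and at 0.251 (0.127 to 0.541) in pulp-like cluster 5. Ccl8 was at 14.9 (5.33 to 57.6) in lineage cluster 0, with 66.7% of the Memo1-mutant counts in 1 cell. In cluster 5 Ccl8 was at 0.0658 (0.030 to 0.144), with 80.0% of its 15 Control counts in 1 cell. Ccl9 was at 4.07 (1.64 to 13.1) in cluster 15 and at 0.425 (0.246 to 0.732) in cluster 8. Ccl6 was at 22.7 (3.92 to 912) in cluster 15 and at 0.132 (0.074 to 0.242) in cluster 5, where 94.7% of the Control counts lay in 1 cell. Without that cell the ratio of Ccl6 in cluster 5 was 2.3, and without the 5% deepest cells 2.43, so its opposite direction there rests on 1 cell. Macrophage markers summed to 490 CPM in the Memo1-mutant and 157 CPM in the Control in cluster 15, to 218 and 864 CPM in cluster 5, and to 323 and 600 CPM in cluster 8, and C1q stood at 630 and 329 CPM in lineage cluster 0. In each of these clusters the ligands named here and the macrophage genes differed in the same direction, save Ccl6 in cluster 5 without its top cell. Other ligands went the other way in clusters 5 and 8. There the 6 most abundant macrophage ligands had median ratios of 3.24 and 2.08, and C1q stood at 0.311 and 0.433. In cluster 15 and lineage cluster 0 their median and C1q were both above 1. The part of macrophage RNA in these ratios was not tested.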

How the results depend on the processing

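No paired analysis was possible because each genotype has 1 library. Of 988 recomputed values of 118 single ratios under 9 alternatives, 931 kept their side of 2-fold, 35 fell inside it, 15 passed it and 7 reversed. A reversal was counted only where the main or the recomputed value was past 2-fold. Turns across 1 that stayed inside 2-fold would be among the 931. The reversed ones were Cxcl10 in cluster 1, at 0.955 with cells of at least 1000 UMIs and 0.585 when thinned, Ccl11 in cluster 10, at 7.63 without the 5% deepest cells, Ccl2 in cluster 5, at 0.544 when thinned, Ccl6 in cluster 5, at 2.43 without the deepest cells and 2.30 without its top cell, and Xcl1 over all cells, at 1.2 without its top cell. A ratio under 20 counts in an alternative was not recomputed there. Over 26 clusters the 112 higher and 15 lower of 316 ligand pairs became 28 and 3 of 99 when thinned, and 37 of 457 were lower with at least 1 count in each library. The 10 higher and 10 lower of 68 receptor pairs became 0 and 3 of 25 when thinned, 5 and 6 of 57 without the top cell, 31 and 31 of 157 with at least 1 count in each library, and 1 and 5 of 42 with at least 50 counts. The higher ones became 5 of 60 without the deepest cells and 6 where the interval also excluded 1. Fewer counts leave fewer pairs, and other causes were not tested. In cluster 4 the 1 lower ligand became 0 when thinned, with per-cell means or at 50 counts, and 3 with at least 1 count in each library; the 0 lower receptors became 1 under TMM and under median-of-ratios factors, and 3 with at least 1 count in each library. Over all cells the 7 higher and 2 lower ligands became 3 and 1 when thinned, the 2 lower became 0 without the top cell, and the 1 lower receptor became 0 when thinned. Summed ligand CPM in cluster 4 was 19873 in the Memo1-mutant and 17474 in the Control as a mean of per-cell CPM, and the full-depth shares of cells with a Cxcl1 UMI were 45.3% and 22.6%. The counts of 7 of 8 lineage clusters with Ackr3 below 1 and of 16 members led by cluster 4 stayed near these values under the alternatives run. They were not identical throughout. In the Memo1-mutant alone, Cxcl3, Ccr3 and Ccl9 were led by clusters other than 4, and in the Control alone Cxcl1 and Cxcl13 were.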
